A study of Mus musculus with 10 samples.

Results

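The genes described here carry glucose into the cell, break it down through glycolysis, divert it into the pentose phosphate pathway, store it as glycogen, and hand the pyruvate that results to lactate or to the mitochondria. They were taken as every array probe whose gene symbol is one of 43 listed names, which stand for 42 genes because Pkm and Pkm2 name the same one. No probe carried the symbol Gapdh or Eno1, so 40 genes with 47 probes were found among the 19942 gene symbols of the array. The lactate transporter gene Slc16a1 had a probe without a signal (none of the 10 arrays found it), and its removal left 39 genes to test among 16113.

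RNA came from the left ventricle of male C57BL/6J mice aged 8 weeks at the operation, in which pressure overload was produced by transverse aortic banding (TAB), a constriction of the aorta that makes the ventricle pump against a higher resistance. Control mice had a sham operation. One TAB and one sham sample were measured on each of 5 days (3, 5, 7, 14 and 28), counted from the operation, so that there were 5 samples per operation and 10 arrays. How many mice went into a sample is not stated in the sources used here, so a difference on a single day has no replicate check, and every test below takes the 5 days as the replicates of an average TAB effect. One label of the TAB sample of day 14 says 15 days, while its title says 14, and it was used as day 14.

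Glucose enters heart muscle through GLUT1 (Slc2a1) and the insulin-responsive GLUT4 (Slc2a4), is trapped by a hexokinase, and is committed to glycolysis by phosphofructokinase, which fructose 2,6-bisphosphate made by the Pfkfb enzymes activates. Several of these steps exist as isoforms, of which one is typical of striated muscle (Hk2, Pfkm, Pgam2, Eno3, Pygm) and others are more widely expressed (Hk1, Pfkp, Pfkl, Pgam1, Pygb, Pygl). The adult heart draws most of its energy from fatty acids, and a shift toward glucose and toward fetal isoforms is a known feature of the overloaded heart. The pentose phosphate pathway makes NADPH and ribose 5-phosphate, and glycogen is a local glucose store.

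Over the 5 days 8 members were higher in TAB and 6 were lower, at an adjusted p below 0.05 in a linear model with day as a block. The 8 that rose were Hk1, Pfkp, Pfkfb4, Slc16a3, G6pdx, Pgd, Tkt and Pygl, and the 6 that fell were Slc2a4, Pfkm, Pfkfb1, Eno3, Pdhb and Phkg1. Over all genes tested, 9.51% were called higher and 8.22% lower, against 20.5% and 15.4% of the 39 members. The median log2 difference of the members was -0.014 and that of all genes was -0.032, while the median absolute difference was 0.41 for members and 0.30 for all genes. The values of TAB and sham did not overlap for 4 members with TAB above (9.92% of all genes) and for 8 with TAB below (7.72% of all genes). A log2 difference is given below as the mean over the 5 days with its standard error (SE, n = 5 days), and single values are normalized intensities in arbitrary units in the order of days 3, 5, 7, 14 and 28.

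These calls rest on few samples and depend on every day of the first week. With day 3, day 5 or day 7 left out, no member passed, and among all genes 28, 122 and 33 passed in place of 2857. Without day 14 there were 4 members that passed (Tkt higher, Pfkm, Pfkfb1 and Phkg1 lower), and without day 28 there were 13, of which 11 were among the 14 (Pfkm, Slc16a3 and Tkt were lost, and Ldhb and Gys1 were new). All 14 kept their direction and an unadjusted p below 0.05 whichever day was left out. With probes below 1 set to 1 instead of removed, only Pfkp, Pfkfb4, Pfkfb1 and Phkg1 passed.

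**Figure D1:**
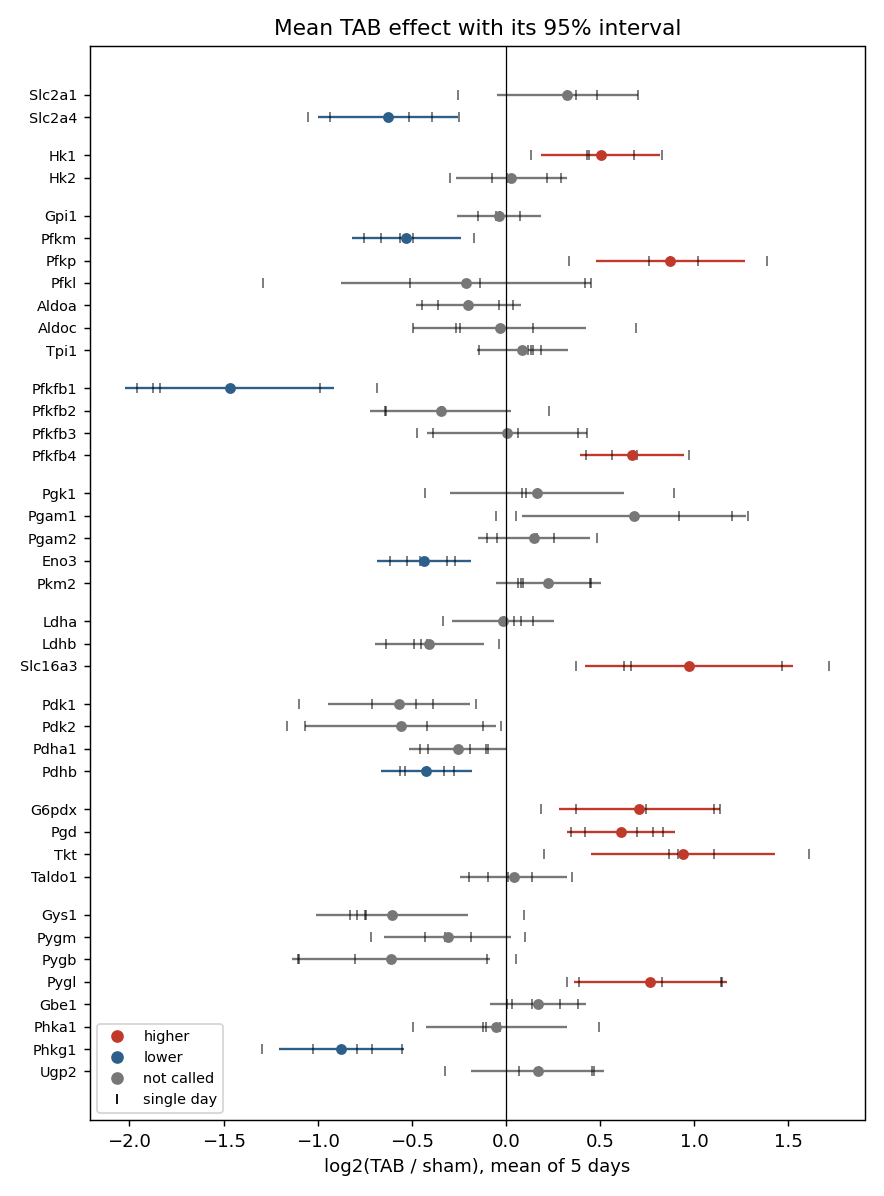
Mean log2 ratio of TAB over sham for the 39 members tested, grouped from top to bottom by glucose transport, hexokinases, upper glycolysis, the Pfkfb enzymes, lower glycolysis, lactate, pyruvate dehydrogenase, pentose phosphate and glycogen. Points are means of 5 days, horizontal bars are 95% intervals of the model and vertical ticks are single days. The 8 red points lie between 0.50 and 0.97, and the 6 blue points between -1.47 and -0.42.

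Some measures of the tissue moved with the operation. Of 9 leukocyte markers tested, 8 were higher in TAB, with a summed intensity of 4383 to 11527 in TAB and 2528 to 3361 in sham, and 4 of 5 fibroblast markers were higher (37000 to 52181 in TAB, 27604 to 30026 in sham). Of 6 proliferation markers, 4 were higher (474 to 1950.2 in TAB, 215 to 508 in sham). The 9 cardiomyocyte markers were found on every array and summed to 273660 to 283130 in TAB and 288360 to 320750 in sham, and 1 of them, Atp2a2, was called lower, while another, Myl2, was saturated on most arrays. Of 3 smooth muscle markers 1 was higher (summed intensity 1302.5 to 1989 in TAB, 1094 to 1912 in sham), and of 5 adipocyte markers 1 was higher (3839 to 9069 in TAB, 8009 to 10290 in sham). These were Tagln and Cfd, named like Atp2a2 after their values were seen. No marker among 6 endothelial and 4 erythroid genes was called, and of the 2 skeletal muscle markers that could be tested neither was called and one, Actn3, was found on none of the arrays. The leukocyte and proliferation sums of TAB were highest on days 3 to 7, when most of the differences below were also largest. The part of these cells in the results was not tested, and in RNA of whole tissue a change in the number of cells of a type and a change in RNA per cell cannot be told apart.

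The sham sample of day 14 stood apart from the other shams in markers of hypertrophy. Nppb, a natriuretic peptide gene of the strained ventricle, read 6704, 3016, 5766, 15606 and 3819 in sham and 22177, 18279, 21672, 17554 and 14720.2 in TAB, and Myh7, the fetal myosin heavy chain, read 655, 1036, 1059, 3997 and 1222 in sham. For 7 of the 14 called members (Slc2a4, Pfkm, Pfkfb1, Eno3, Phkg1, Tkt and Pygl) this sample was the sham value nearest to TAB. The share among all called genes was not counted, so this is not known to be particular to the members. With the arrays of day 14 left out before normalization, their mean log2 differences were -0.69 for Slc2a4, -0.62 for Pfkm, -1.67 for Pfkfb1, -0.44 for Eno3, -0.91 for Phkg1, 1.13 for Tkt and 0.86 for Pygl, beside the means over 5 days given below. Because these 7 were picked for a sham value of day 14 near TAB, the choice itself favours larger differences without that day. No conclusion about that sample is drawn from them.

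**Figure D2:**
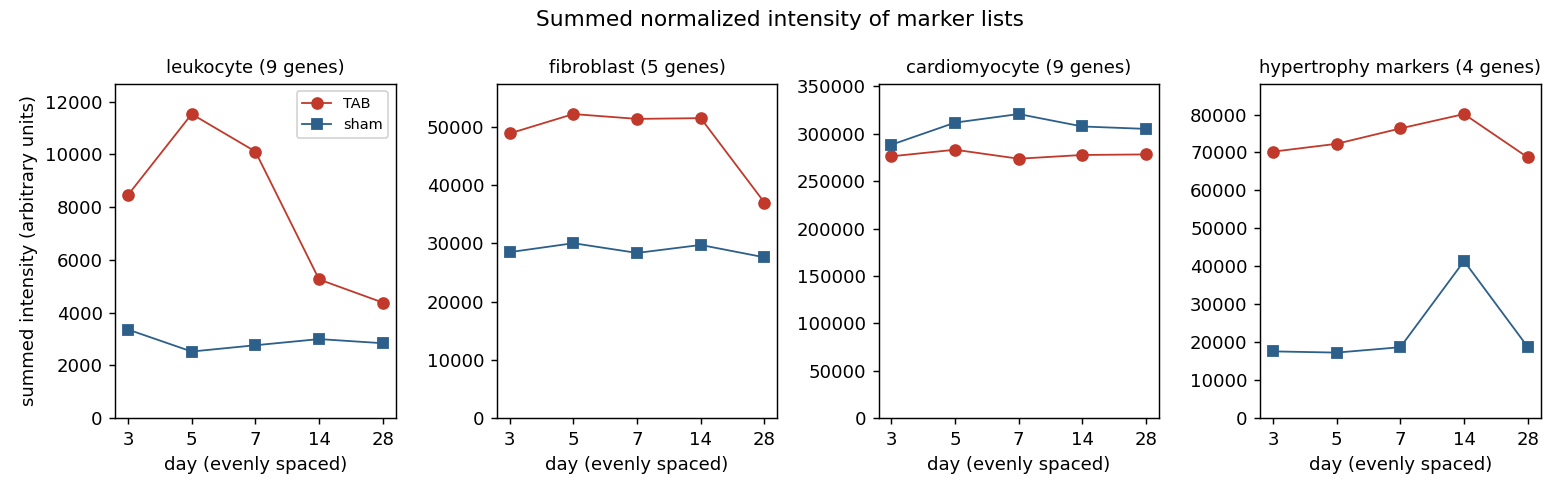
Summed normalized intensity of 4 marker lists by day (evenly spaced), with TAB in red circles and sham in blue squares, 1 sample each. The leukocyte and fibroblast sums of TAB lie above those of sham on all 5 days, the cardiomyocyte sum lies below, and the sham sample of day 14 has a hypertrophy marker sum of 41402 against 17291 to 18769 in the other shams.

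At the entry step, the insulin-responsive transporter fell and the basal one did not pass the test. Slc2a4 read 2247, 1898, 1759, 2026 and 2481 in TAB and 3205, 3931, 3357, 2658 and 2943 in sham. Every TAB value was below every sham value, and the gap was widest on days 5 and 7. The mean log2 difference was -0.63 ± 0.15 (SE), or 1.54-fold lower, with an adjusted p of 0.0406. The call was lost with median scaling alone (adjusted p = 0.0697) and with quantile normalization within each operation (adjusted p = 0.0691). Slc2a1 was above sham on days 3 to 14 and below it on day 28, with a mean of 0.33 ± 0.15 and an adjusted p of 0.186.

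Of the hexokinases, Hk1, the widely expressed form, was higher in TAB and Hk2, the muscle form, was close to sham. Hk1 read 1403, 1647, 1504, 1386 and 1022 in TAB and 1031, 1025, 845, 1029 and 932 in sham. The TAB value of day 28 lay within the sham range and the other 4 TAB values lay above it. The mean log2 difference was 0.50 ± 0.13, with an adjusted p of 0.0462. This came from the brighter of 2 Hk1 probes. The other probe, found on all arrays, had a mean of 0.052 ± 0.11, and with the mean of both probes Hk1 did not pass. Hk2 had a mean of 0.03 ± 0.12, with an interval from -0.27 to 0.33.

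Between phosphofructokinase isoforms the directions were opposite. Pfkp, the platelet-type subunit, read 90.3, 85.4, 93.2, 84.1 and 69.3 in TAB and 34.6, 46.6, 45.9, 49.7 and 54.8 in sham, and Pfkm, the muscle subunit, read 7517, 7221, 6445, 7522 and 7882 in TAB and 10593, 12166, 10211, 8458 and 11652 in sham. In neither gene did the groups overlap. Pfkp was higher by 0.88 ± 0.16 on the log2 scale (adjusted p = 0.0243), with its ratio largest on day 3 and smallest on day 28. Its probe is dim, and with 50 added to the intensities before the log2, which by construction draws dim probes toward 0, the difference was 0.48 and still passed. Pfkm was lower, at -0.53 ± 0.12 (adjusted p = 0.0344), and was least apart from sham on day 14. The Pfkm call was lost with median scaling alone (adjusted p = 0.0576). The liver-type subunit Pfkl was dim, was not found on 4 of the 10 arrays and had ratios of either sign.

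The bifunctional Pfkfb enzymes make and remove fructose 2,6-bisphosphate, and their genes also diverged. Pfkfb1, known as the liver and muscle form, read 94.9, 87.4, 102, 81.3 and 115 in TAB and 188, 320.4, 364, 131 and 447 in sham. The 5 TAB values were close together and all lay below the sham values, which ranged widely and were lowest on day 14. Its mean log2 difference of -1.47 ± 0.23, 2.77-fold lower, was the largest of the members (adjusted p = 0.0188). Sham samples of different days differed by up to 1.78 in log2, and the TAB ratio exceeded that on days 5, 7 and 28. Pfkfb4, the testis-type form, read 211, 248, 205, 188 and 149.6 in TAB and 130.2, 127, 128, 127 and 111 in sham. The sham values were nearly level apart from a lower one on day 28, all 5 TAB values lay above them, and the mean was 0.67 ± 0.11 (adjusted p = 0.0212). With other processing of all 5 days this mean ran from 0.51 to 0.74. Pfkfb3, the inducible form, had a mean of 0.0064 ± 0.17.

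Pfkfb2, the heart form, differed between its probes. The brightest gave -0.35 ± 0.15 and did not pass (adjusted p = 0.166). With each day left out in turn, the value of Pfkfb2 ran from -0.73 to -0.27 and did not pass either. Another probe, found on all arrays, gave -0.76 ± 0.18 in a fit of every probe on its own, with an adjusted p of 0.0452. On both probes TAB was below sham on days 3 to 14. The remaining probe was found on none of the TAB arrays.

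**Figure D3:**
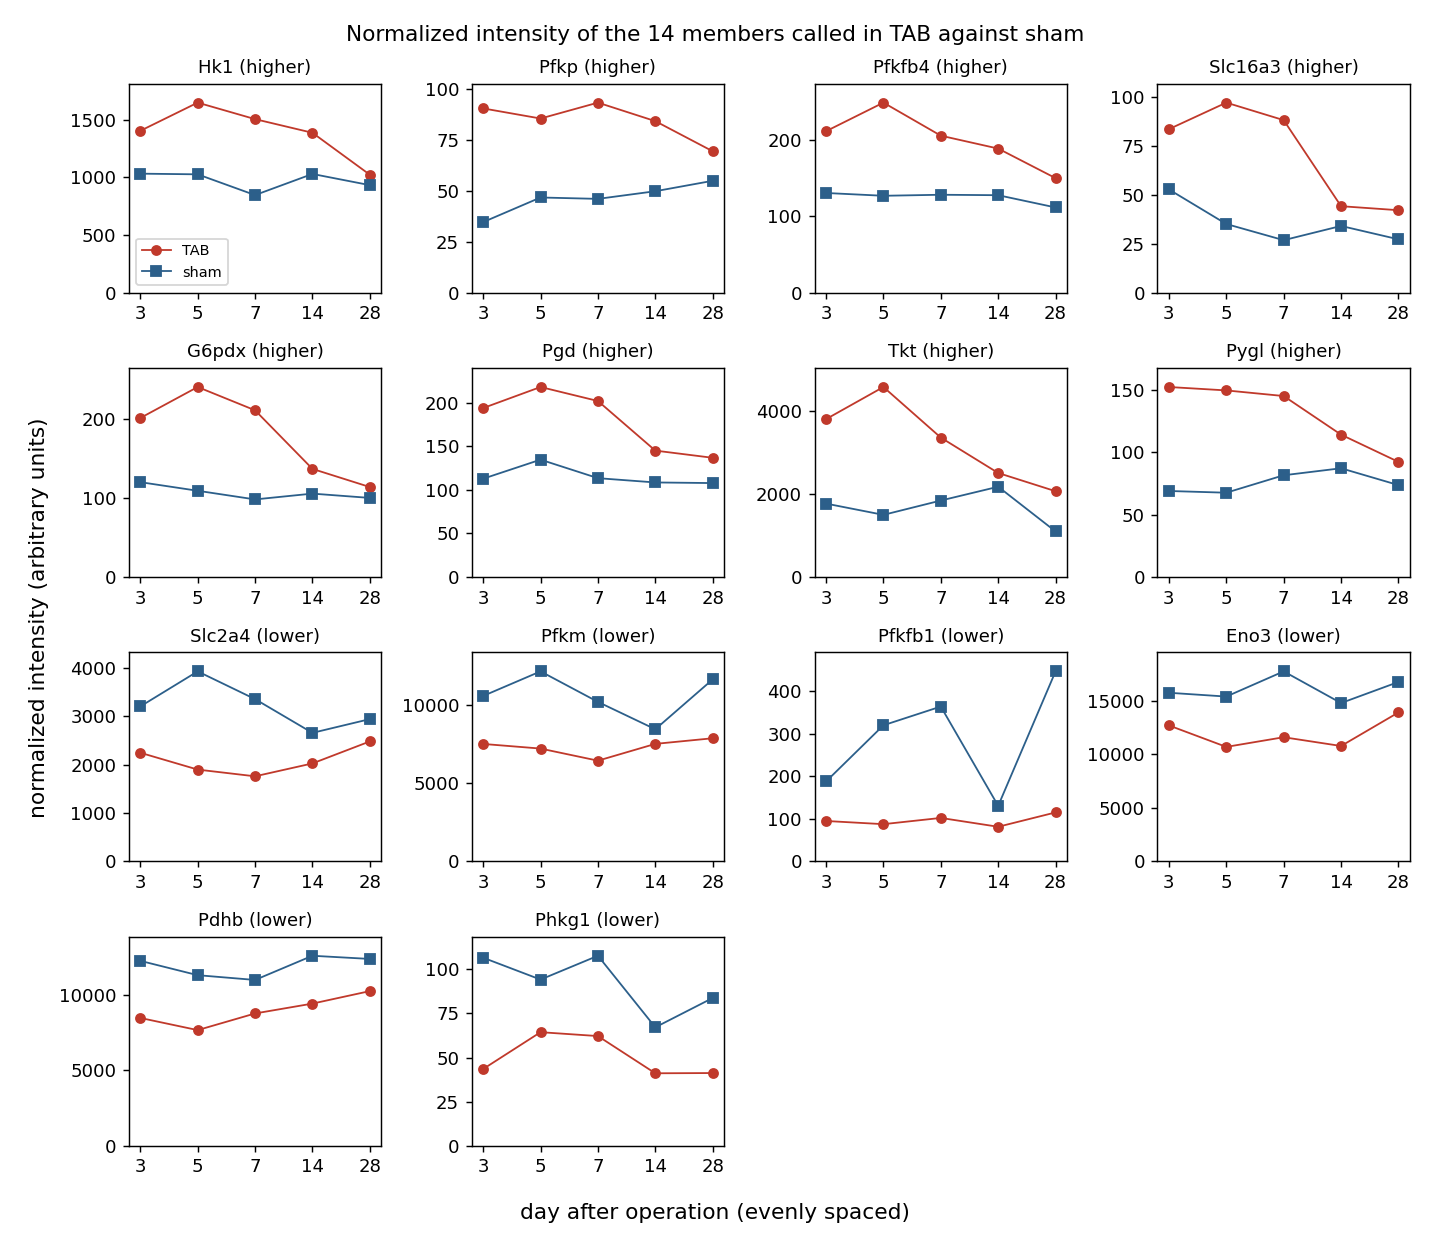
Normalized intensity of the 14 called members by day (evenly spaced), with TAB in red circles and sham in blue squares, 1 sample each and every axis starting at 0. In the panels of the genes that rose, TAB lies above sham on all 5 days and comes nearest to it on day 14 or 28, and in the panels of those that fell TAB lies below sham on all 5 days.

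In the middle of the pathway no member passed the test. Gpi1, Aldoa, Aldoc and Tpi1, which carry glucose 6-phosphate to the triose phosphates, had mean log2 differences from -0.20 to 0.088. Gpi1 had another, dimmer probe with a mean of 0.28 ± 0.15.

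In lower glycolysis Eno3, the muscle enolase, fell and the other members did not pass. Eno3 read 12685, 10681, 11584, 10765 and 13897 in TAB and 15735, 15381, 17732, 14774 and 16743 in sham. The groups did not overlap, and the ratio exceeded the largest difference between sham samples (0.26) on all 5 days. Its mean was -0.44 ± 0.10 (adjusted p = 0.0375), and the call was lost with median scaling alone (adjusted p = 0.0538). Pgam1, the widely expressed phosphoglycerate mutase, read 5465, 5117, 5673, 3392 and 3117 in TAB and 2887, 2097, 2467, 3518 and 3007 in sham. The TAB values of days 3, 5 and 7 were above all sham values and those of days 14 and 28 were among them. With a mean of 0.68 ± 0.25 it did not pass (adjusted p = 0.102). The muscle form Pgam2 (0.15 ± 0.12), Pgk1 (0.16 ± 0.19) and the pyruvate kinase gene Pkm2 (0.23 ± 0.11) did not pass. The Pkm2 probe is not known here to separate the M1 and M2 splice forms.

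Among the genes of lactate, the exporter Slc16a3 (MCT4) was higher in TAB. It read 83.6, 97.2, 88.2, 44.2 and 42.1 in TAB and 52.7, 35.1, 26.8, 34.1 and 27.2 in sham. The TAB values of days 3 to 7 were above all sham values and those of days 14 and 28 were within the sham range. The probe is dim, and the sham sample of day 7 was the only one in which it was not found, so that its sham reading there is uncertain. The mean log2 difference was 0.97 ± 0.23 (adjusted p = 0.0374). It was 0.74 without day 7 and 0.49 with 50 added before the log2, and the call was lost whichever day was left out (adjusted p = 0.0506 to 0.117) and with median scaling alone (adjusted p = 0.0559). Ldhb, the lactate dehydrogenase subunit that predominates in heart, read 13824, 12909.6, 13852, 14329 and 16839.7 in TAB and 19356, 20083, 18921, 19181 and 17263 in sham. The groups did not overlap, although on day 28 the values were nearly equal, and the mean of -0.41 ± 0.12 missed the threshold (adjusted p = 0.0624). Ldha had a mean of -0.014 ± 0.11 on its brightest probe, and -0.032 ± 0.12 and 0.34 ± 0.14 on its other probes. All Ldha probes also name the predicted gene Gm13315.

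Pyruvate dehydrogenase lets pyruvate into the citric acid cycle, and the Pdk kinases switch it off. Pdhb, the E1 beta subunit, read 8479.6, 7672, 8777, 9432 and 10262 in TAB and 12270.5, 11319, 11002, 12609 and 12397 in sham. No TAB value reached the lowest sham value, and the ratio exceeded the largest difference between sham samples (0.20) on all 5 days. Its mean was -0.42 ± 0.10 (adjusted p = 0.0373), and the call was lost with median scaling alone (adjusted p = 0.0662). The E1 alpha subunit Pdha1 was below sham without overlap, at -0.25 ± 0.11 (adjusted p = 0.150). The kinases Pdk1 (-0.57 ± 0.16, adjusted p = 0.0531) and Pdk2 (-0.56 ± 0.21, adjusted p = 0.111) had negative ratios on all 5 days and did not pass.

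Of 4 pentose phosphate genes, 3 rose, beside 9.51% of all genes called higher. G6pdx encodes glucose 6-phosphate dehydrogenase, the entry enzyme, and read 202, 241, 212, 137 and 114 in TAB and 120.4, 109, 98.4, 106 and 100.3 in sham. Its TAB value of day 28 lay within the sham range, those of the other days above it. Pgd, the next NADPH-producing dehydrogenase, read 194, 218, 202, 145 and 137 in TAB and 113, 135, 113, 109 and 108 in sham. All TAB values exceeded all sham values, and the ratio exceeded the largest difference between sham samples (0.32) on all 5 days. Tkt, the transketolase of the non-oxidative branch, read 3815, 4591, 3368, 2512 and 2072 in TAB and 1772, 1500.2, 1846, 2180.2 and 1099 in sham. Its sham values were uneven, highest on day 14, and the TAB value of day 28 was below that sham value.

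The mean log2 differences were 0.71 ± 0.18 for G6pdx (adjusted p = 0.0423), 0.61 ± 0.12 for Pgd (adjusted p = 0.0255) and 0.94 ± 0.20 for Tkt (adjusted p = 0.0313). These are 1.64-fold, 1.53-fold and 1.92-fold. With other processing of all 5 days the log2 differences ran from 0.53 to 0.77 for G6pdx, 0.46 to 0.67 for Pgd and 0.92 to 1.07 for Tkt. Taldo1, the transaldolase, had a mean of 0.042 ± 0.12 and an interval from -0.24 to 0.33. Of 4 further genes of this pathway that could be tested, limma called none in either direction (lowest unadjusted p = 0.0722). G6pdx and Pgd were most above sham on days 3 to 7, when the leukocyte and proliferation sums of TAB were highest. The log2 ratios of Tkt were 1.11, 1.61, 0.87, 0.20 and 0.91 in the order of the days, smallest on day 14. The part of leukocytes and of proliferating cells in these differences was not tested.

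Of 8 glycogen genes 1 rose, 1 fell and 6 did not pass, shares close to those of all genes given above. Pygl, the liver-type glycogen phosphorylase, read 152, 149.7, 145, 114 and 92.3 in TAB and 69.0, 67.6, 81.6, 87.2 and 73.7 in sham. Its groups did not overlap, and its TAB values declined toward sham on days 14 and 28. The mean was 0.77 ± 0.17, or 1.70-fold (adjusted p = 0.0321). With other processing of all 5 days the log2 difference ran from 0.51 to 0.80. Pygb, the brain-type phosphorylase, which the heart also expresses, had lower values in TAB on most days and read 1446, 1834, 1802, 2256 and 2932 in TAB and 3099, 3945, 3139, 2421 and 2824 in sham. It was below all sham values on days 3 to 14 and among them on day 28, and with -0.61 ± 0.22 it did not pass (adjusted p = 0.0982). The muscle form Pygm had a mean of -0.31 ± 0.14 (adjusted p = 0.169).

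Phkg1, the catalytic subunit of muscle phosphorylase kinase, read 43.5, 64.4, 62.2, 41.1 and 41.2 in TAB and 107, 94.2, 108, 67.2 and 83.8 in sham. Every TAB value was below every sham value, although sham was lowest on day 14. The mean log2 difference was -0.87 ± 0.14, 1.83-fold lower (adjusted p = 0.0188). This probe too is dim, and with 50 added before the log2 the difference was -0.50 and still passed. The regulatory subunit Phka1 had a mean of -0.05 ± 0.15. Gys1, the muscle glycogen synthase, was below sham on days 3 to 14 and above it on day 28, and missed the threshold at -0.60 ± 0.17 (adjusted p = 0.0537). The branching enzyme Gbe1 (0.17 ± 0.11) and the UDP-glucose pyrophosphorylase Ugp2 (0.17 ± 0.15) did not pass.

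For steps with several isoforms, the log2 ratio of one isoform was set against that of another on the same day. Pfkp exceeded Pfkm by 1.40 ± 0.20 (SE, n = 5 days), and Pfkfb4 exceeded Pfkfb1 by 2.14 ± 0.29. Pygl exceeded Pygm by 1.08 ± 0.28 and Pygb by 1.38 ± 0.42, and Hk1 exceeded Hk2 by 0.48 ± 0.15. In each of these 5 pairs the difference was above 0 on all 5 days. For Hk1 this holds on the brighter probe, while its dimmer probe differed from Hk2 by 0.022 ± 0.13 and was above it on 2 days. Between Pgam1 and Pgam2 it was 0.53 ± 0.33 and above 0 on 3 days. The 6 pairs were chosen with the values known, so the differences are a description and were not tested.

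**Figure D4:**
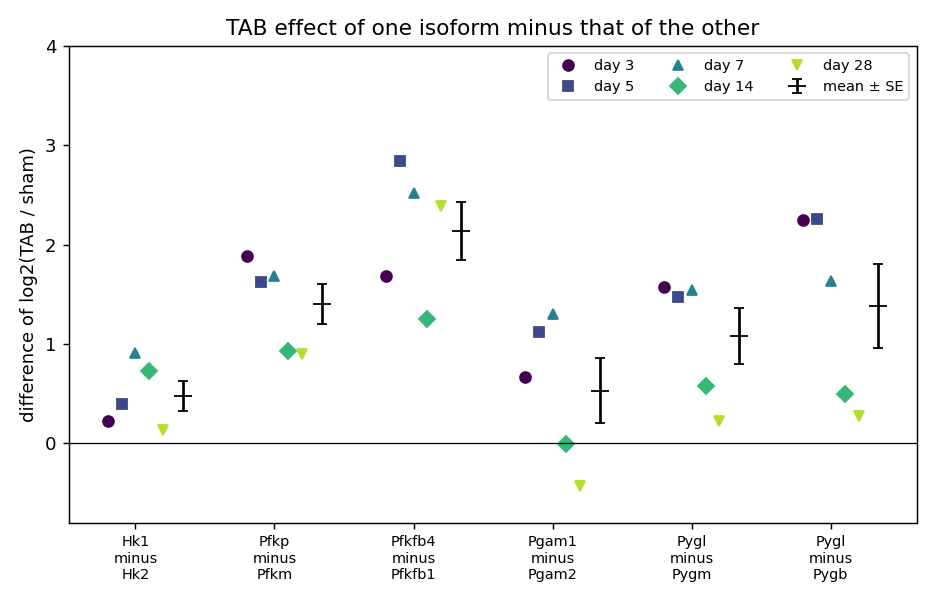
Log2 ratio of TAB over sham of one isoform minus that of another on the same day for 6 pairs, with 1 marker per day and the mean ± SE over 5 days in black. All daily points of 5 pairs lie above 0, between 0.13 and 2.85 (Hk1 by its brighter probe), and those of Pgam1 minus Pgam2 lie on either side of it.

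Day by day, few members stood out from the array as a whole. The study's rule for a differentially expressed (DE) gene of a day asks for a log2 ratio farther from 0 than 2 standard deviations of all genes on that day, here 1.71, 1.86, 1.69, 1.43 and 1.33 in the order of the days. It was met by 5.18%, 5.54%, 5.44%, 5.64% and 5.75% of all genes in the same order. Of the members, only Pfkfb1 (lower on days 5, 7 and 28) and Slc16a3 (higher on day 7) were DE. The Slc16a3 ratio of day 7, at 1.72, lies just past the threshold and is uncertain, because it rests on a sham spot that was not found. With 50 added to the intensities before the log2 the number of such calls was 10 in place of 4, or 5.13% of the 195 pairs of a member and a day in place of 2.05%, against 4.72% and 5.51% over all genes. Ratios were above 0 on all 5 days in 10 of the 39 members, against 17.2% of all genes, and below 0 on all 5 days in 10 others, against 17.5%.

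The difference between the first week and the later days was also tested. All 8 genes that rose had a larger mean ratio on days 3 to 7 than on days 14 and 28, and all 6 that fell had a more negative one. The same held for 83.9% of all genes called higher and 81.4% of those called lower, so the pattern was common to the array. No member passed the test of this difference (limma, lowest adjusted p = 0.338), and 0% of all genes did. At an unadjusted p below 0.05 there were 5 members, against 11.3% of all genes. These were Pgam1, with an early minus late difference of 1.14 ± 0.21, Pygb (-0.98 ± 0.20), Pdk2 (-0.81 ± 0.29), G6pdx (0.72 ± 0.22) and Pygl (0.68 ± 0.20). With limma's trend and robust options on, Pgam1 was the 1 member that passed (adjusted p = 0.0424), along with 0.211% of all genes.

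**Figure D5:**
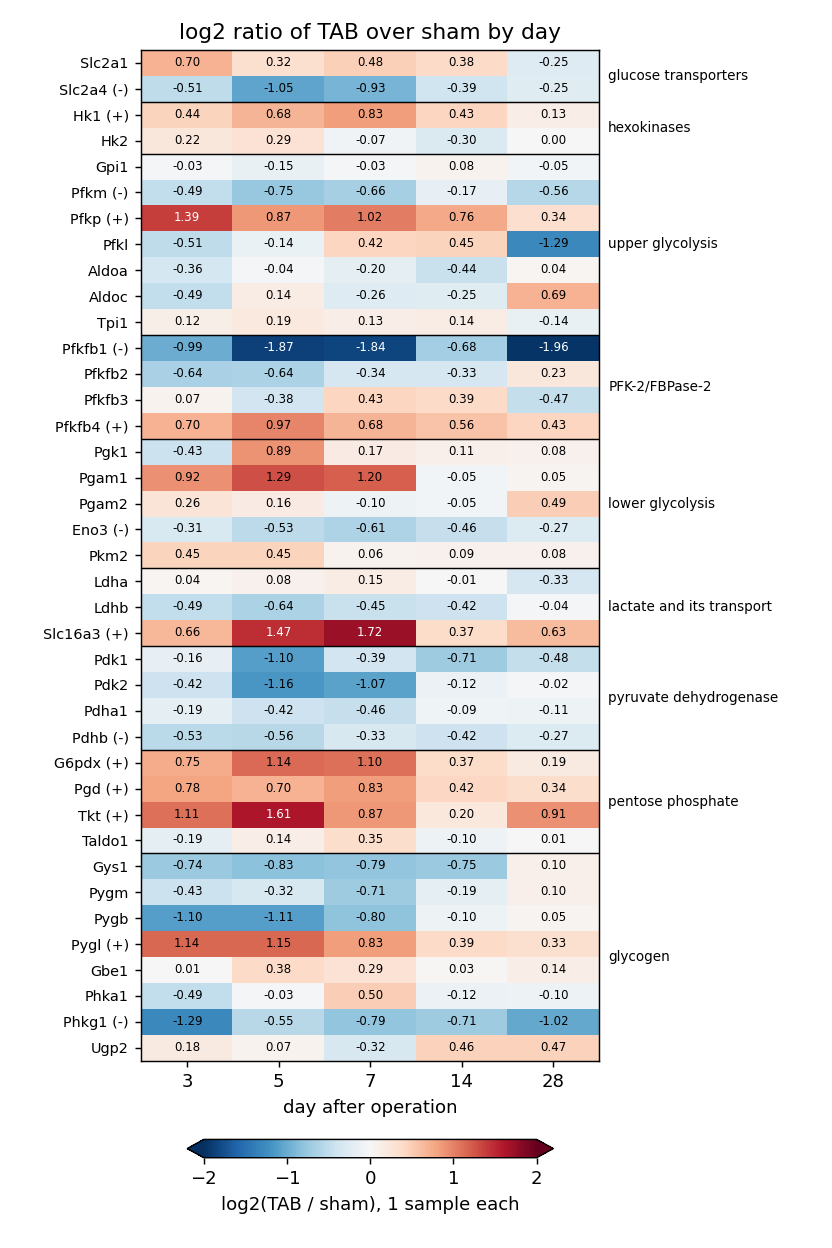
Log2 ratio of TAB over sham on each day for the 39 members by role, red above and blue below 0, with 1 sample of each operation per day. A plus or minus marks the members called higher or lower over the 5 days. The darkest cells belong to Pfkfb1, at -1.87, -1.84 and -1.96 on days 5, 7 and 28, and to Slc16a3 on day 7, at 1.72. That Slc16a3 value is uncertain because its probe was not found in the sham sample of that day.

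The start regions of the members were read from RefSeq to see whether the genes that rose share letters there. The hypoxia response element has the core ACGTG or GCGTG, and the E-box CACGTG, read by Myc and ChREBP, holds ACGTG on each strand. Both strands of the 250 bases before the annotated start were searched, for 39 of the 40 members with a probe, all but Slc2a4. The windows printed are those of the 3 pentose phosphate genes that rose together, of Slc16a3, the lactate exporter gene that rose, and of Ldha, which did not pass and whose window at one of its annotated starts held 5 copies of ACGTG. Each is given 5′ to 3′ on the gene's strand (GRCm38.p6, RefSeq), with the searched letters in capitals, CACGC and CACGT being GCGTG and ACGTG on the opposite strand.
G6pdx, chrX:74428881-74429130, minus strand: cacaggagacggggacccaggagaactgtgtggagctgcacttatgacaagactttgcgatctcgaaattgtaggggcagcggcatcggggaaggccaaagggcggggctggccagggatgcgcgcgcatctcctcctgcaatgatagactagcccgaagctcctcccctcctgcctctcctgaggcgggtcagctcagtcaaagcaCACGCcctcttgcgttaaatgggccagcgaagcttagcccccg
Pgd, chr4:149166706-149166955, minus strand: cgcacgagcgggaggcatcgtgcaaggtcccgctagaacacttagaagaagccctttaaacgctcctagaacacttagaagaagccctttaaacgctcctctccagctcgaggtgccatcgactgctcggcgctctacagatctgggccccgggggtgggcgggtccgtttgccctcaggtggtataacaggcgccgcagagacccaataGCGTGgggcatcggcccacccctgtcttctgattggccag
Tkt, chr14:30548881-30549130, plus strand: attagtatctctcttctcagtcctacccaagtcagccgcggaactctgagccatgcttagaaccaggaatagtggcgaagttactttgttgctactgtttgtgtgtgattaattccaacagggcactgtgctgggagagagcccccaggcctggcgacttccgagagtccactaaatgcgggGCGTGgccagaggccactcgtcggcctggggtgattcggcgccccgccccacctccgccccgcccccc
Slc16a3, chr11:120948817-120949066, plus strand: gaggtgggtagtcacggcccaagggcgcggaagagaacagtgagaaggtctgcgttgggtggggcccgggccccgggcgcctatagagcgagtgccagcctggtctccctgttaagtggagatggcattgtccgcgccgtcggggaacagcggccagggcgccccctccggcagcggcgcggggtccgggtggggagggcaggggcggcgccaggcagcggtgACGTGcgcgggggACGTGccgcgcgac
Ldha, chr7:46845554-46845803, plus strand: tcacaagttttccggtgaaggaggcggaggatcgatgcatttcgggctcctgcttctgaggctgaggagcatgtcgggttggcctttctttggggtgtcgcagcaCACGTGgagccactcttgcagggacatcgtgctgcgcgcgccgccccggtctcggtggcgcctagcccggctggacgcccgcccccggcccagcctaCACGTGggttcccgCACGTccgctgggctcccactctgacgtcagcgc

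G6pdx, Pgd and Tkt each held 1 copy of GCGTG, at -43, -40 and -68 from the start, and Slc16a3 held 2 of ACGTG. Pgd has another annotated start whose window held none of the letters, and the window of the other Ldha start held 1 GCGTG and no ACGTG. Of all 32851 windows, 16.6% held ACGTG, 28.2% GCGTG, 38.6% either and 6.02% CACGTG. Of the 58 windows of members, 41 (70.7%) held ACGTG or GCGTG and 6 held CACGTG. Windows of the same gene can overlap, as in Aldoa and Pfkm, so the same match can be counted in several windows. By call, these letters were in 8 of 10 windows of genes that rose, 6 of 11 of those that fell and 26 of 36 of those not called. The matches are a description of the letters, and which start was used in these ventricles was not measured.

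Of 68 other genes of the same pathways with a probe, 59 were tested, 4 of them higher (6.78%) and 10 lower (16.9%). Over all genes 9.51% were called higher and 8.22% lower. The higher genes were Pdk3, a pyruvate dehydrogenase kinase (1.12 ± 0.19), Gyg, the glycogen primer glycogenin (0.52 ± 0.11), Stbd1, which tethers glycogen to membranes (1.14 ± 0.25), and the transcription factor gene Myc (1.09 ± 0.29, adjusted p = 0.0492). Of the lower genes, 4 encode other subunits of the pyruvate dehydrogenase complex or the phosphatases that switch it on, namely Dlat (-0.60 ± 0.15), Dld (-0.996 ± 0.22), Pdp1 (-0.89 ± 0.12) and Pdp2 (-0.74 ± 0.18). Also lower were the transporters Slc2a12 (-0.55 ± 0.11) and Slc16a7 (-1.06 ± 0.26, found on 3 of 5 TAB arrays), the lactate dehydrogenase D gene Ldhd (-0.76 ± 0.14), the muscle fructose bisphosphatase Fbp2 (-1.02 ± 0.13) and Pklr (-0.57 ± 0.13).

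Of the regulators of glycolysis, Myc read 93.4, 127, 134, 64.8 and 38.1 in TAB and 33.1, 37.5, 42.1, 45.7 and 36.9 in sham. Its TAB values were above all sham values on days 3 to 14 and within their range on day 28. Hif1a (0.33 ± 0.19), Epas1 (-0.35 ± 0.14), Mlxip (0.16 ± 0.12), the ChREBP gene Mlxipl (-0.11 ± 0.15) and Txnip (-0.51 ± 0.27) did not pass. Txnip, whose product holds back glucose uptake, was below sham on days 3 to 7 and above it on days 14 and 28.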

How the data were processed

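The authors deposited 1-colour (Cy5) intensity values per probe of the Mouse Whole Genome OneArray v2, read with an Agilent scanner and GenePix, with detection p-values, whose computation is not stated and which were not used, and a flag. A negative flag was read as a spot not found, as GenePix commonly uses it. Other deposited columns were not used. Raw medians ran from 34 to 57 per array and 40.3% to 47.3% of probes were not found, which limits dim probes; no member was saturated. Arrays were brought to the mean of their medians, probes under 1 on any array were dropped (19976 of 26423 kept), each rank took its median value over the 10 arrays (quantile normalization), and log2 was taken. The study's methods take the rank medians separately for each condition. Here they were taken over all arrays, which departs from that step, and medians within each operation were an alternative, in which 13 of the 14 called members were called (all but Slc2a4).

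A gene was represented by its brightest probe, since the methods' choice of the probe with the largest summed change selects on the tested difference. The TAB effect and its early minus late difference were fitted to all genes with limma 3.58.1 (R 4.3.3; lmFit and eBayes, trend and robust off, 2-sided, Benjamini-Hochberg over all genes, threshold 0.05). Samples were paired by the labelled day, with the deviations of a day's TAB and sham samples correlating at r = -0.0044 to 0.14. The fits were tested on simulated data. All members are named, and of other pathway genes those called, except 1 that is not reported here, and the regulators. Members and lists were chosen with earlier results of these data known. Alternatives were other normalizations, filters, offsets, probe rules, eBayes options and thresholds, no day block, and each day left out; the fit of every probe on its own was added after seeing the data. Figures were drawn with Python 3.11.15 and matplotlib 3.10.9.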

Additional observations from a re-analysis of the deposited data

Results flagged for a closer look

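In the sham group of 5 samples, Pfkfb4 had 1 sample far from the others. The sham value of day 28 was 111, the next lowest was 127 and the highest 130.2, and on the log2 scale the gap was 0.819 of the range. Pgd in sham had its highest value, 135, on day 5, with the other 4 samples between 108 and 113, a gap of 0.771 of the range on the log2 scale. Of the 78 groups examined (39 members in each operation) these 2 stood out, and chance alone picks out about 1 in 20. The brightest of 3 Ldha probes was above sham on days 3, 5 and 7 and below it on days 14 and 28, with an early minus late difference of 0.262 in log2. That difference had an unadjusted p of 0.242 in the limma fit and did not pass. The other Ldha probes also had larger mean ratios early than late, by 0.38 and 0.31, but the signs of their days differed, one being above sham on all 5 days and the other below it on day 7 as well.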

How the results depend on the processing

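The 14 calls are the most exposed to leaving out a day. Without days 3, 5, 7, 14 and 28 in turn, the members called higher numbered 0, 0, 0, 1 and 6, those called lower 0, 0, 0, 3 and 7, and the genes called among all 28, 122, 33, 965 and 2875. With median scaling only, 7 members were higher and 2 lower, and with probes below 1 set to 1 there were 2 of each, with 1129 genes called among all. More members were called lower with probes found on all 10 arrays (11), with trend and robust on (11) and without the day block (no replicate block, 10), and so were more of all genes (1970 of 11059, 2084 and 1661 against 1324 of 16113), and with 50 added before the log2 4331 genes were called among all. The early minus late test called 1 member with trend and robust on, and 34 of all genes. DE calls of members over the days were 10 with 50 added and 24 at an absolute log2 ratio of at least 1, against 4, which is 5.13%, 12.3% and 2.05% of the pairs of a member and a day beside 4.72%, 15.0% and 5.51% over all genes. No called member reversed its direction in any alternative. Among all genes the share of calls that were higher was 53.7%, and it was 67.7% with median scaling only and 66.5% with quantile normalization within each operation. Hk1 was not called with the mean of all probes, the probe of largest change, probes below 1 set to 1 or every probe fitted (adjusted p up to 0.133), and its brightest probe is the source of the call. Depth cannot be given for arrays, and their number limits the precision.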
